A study of Homo sapiens with 8 samples.

Results

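The Wnt feedback and stem target genes examined here are AXIN2, NKD1, DKK1, RNF43, ZNRF3, NOTUM, SP5, APCDD1, TNFRSF19 and LGR5, which are 10 of the 25192 genes listed for each library. They were chosen by their known function, as direct β-catenin targets that restrain Wnt signalling or mark cells with high Wnt activity, with earlier results of these libraries known. In those earlier results AXIN2 and DKK1 were lower in HT29 cells after PrxII knockdown, and AXIN2 and NKD1 responded differently in the cell lines. The study itself reported AXIN2 among the β-catenin targets lowered by PrxII depletion in HT29 cells. The knockdown values of the 10 genes are therefore given as a description, without a p-value for each gene, and nothing is read from their number. Messenger RNA was sequenced from 8 libraries of the human colorectal cancer (CRC) cell lines HT29 and SW480, 2 per group. HT29 cells were transfected with control siRNA or with PRDX2 siRNA, which targets the mRNA of the peroxidase PrxII, and SW480 cells received control or PRDX2 siRNA likewise. The study's control siRNA was directed at firefly luciferase. All groups were taken after 36 h, both lines carry truncated APC, and no untransfected cells were included. Each line is a single established culture, and cell line and culture medium cannot be told apart, since each line had its own. The labels give no sequencing run or date, so a run or date that differed between the lines could not be told apart from cell line.

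In canonical Wnt signalling, Wnt ligands bind Frizzled and LRP receptors, and the cytoplasmic complex of Axin, APC and GSK3 kinases stops degrading β-catenin. β-Catenin then enters the nucleus and activates genes through TCF/LEF factors. Several of these genes encode inhibitors that act on the same pathway at the cell surface, in the extracellular space or in the cytoplasm, and they are therefore read as feedback targets. In the intestine the pathway maintains the crypt stem cells, and in CRC with truncated APC the β-catenin pool no longer depends on the ligand.

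The expected counts of the libraries summed to between 8857442 and 10164137, so that 3 counts corresponded to 0.295 to 0.339 CPM (counts scaled to the library size). The control duplicates of SW480 cells stood apart. Compared by chi-square, their counts differed by 11.23 per degree of freedom, against 1.43 to 2.13 for the duplicates of the other 3 groups, and the log ratio of these duplicates followed transcript GC content with a Spearman rho of -0.72 across genes. In SW480 cells the log2 fold change after knockdown also followed GC content (rho 0.53 across genes), whereas rho was -0.06 in HT29 cells. Genes are not independent replicates, and these values describe the libraries. The part of this GC trend in the SW480 results was not tested, and the SW480 values of the 10 genes, and of the related genes named after them, are given with and without each control library and with a correction for GC content. PRDX2 was at 148 and 154 CPM in control HT29 libraries and at 82.4 and 83.2 CPM after knockdown, a log2 fold change of -0.87 ± 0.049 (SE; adjusted p = 1.15e-09, edgeR). In SW480 cells it was at 209 and 246 CPM in the controls and at 69.5 and 70.7 CPM after knockdown (log2 fold change -1.70 ± 0.12, SE; adjusted p = 0.000618, edgeR). Of 10 intestinal epithelial markers, all 10 reached 1 TPM in HT29 cells and 6 to 7 did so in SW480 cells. The summed level of 5 mesenchymal markers was 1.90 to 2.65 TPM in HT29 cells and 772 to 911 TPM in SW480 cells. Of 4 leukocyte markers 1, CD14, reached 1 TPM in each group, and PTPRC was at 0 in all libraries. Their summed level was 9.14 to 9.22 TPM in control HT29 libraries and 6.90 to 7.37 TPM after knockdown, and 2.94 to 3.77 TPM in control SW480 libraries and 5.72 to 5.78 TPM after knockdown. Of 3 endothelial markers 0 reached 1 TPM in HT29 cells, with a summed level of 0.10 to 0.45 TPM and CDH5 at 0. In SW480 cells 1 of them, VWF, did so, with a summed level of 1.49 to 1.96 TPM and PECAM1 at 0. The part of these marker levels in the results was not tested.

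Promoter sequences from RefSeq, covering 250 bases before to 50 bases after the start site on GRCh37, matched 5 of the 10 genes, namely SP5, DKK1, TNFRSF19, RNF43 and APCDD1. The 3 printed here are from the gene with the most TCF/LEF letters, from the gene that was lower after knockdown in HT29 cells and has an entry, and from the gene with the widest difference between the cell lines. Capitals mark the letters CTTTG followed by A or T at each of the next 2 positions, searched on both strands, which are the core that TCF/LEF factors recognise. The SP5 promoter lies at chr2:171571597-171571896, that of DKK1 at chr10:54073791-54074090 and that of APCDD1 at chr18:10454382-10454681, all on the plus strand and printed 5′ to 3′.
SP5: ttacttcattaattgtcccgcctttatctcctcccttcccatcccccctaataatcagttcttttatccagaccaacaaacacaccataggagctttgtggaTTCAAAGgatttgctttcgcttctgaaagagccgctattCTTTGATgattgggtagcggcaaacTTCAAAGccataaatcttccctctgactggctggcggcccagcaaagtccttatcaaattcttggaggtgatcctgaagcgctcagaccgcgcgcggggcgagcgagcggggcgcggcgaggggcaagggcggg
DKK1: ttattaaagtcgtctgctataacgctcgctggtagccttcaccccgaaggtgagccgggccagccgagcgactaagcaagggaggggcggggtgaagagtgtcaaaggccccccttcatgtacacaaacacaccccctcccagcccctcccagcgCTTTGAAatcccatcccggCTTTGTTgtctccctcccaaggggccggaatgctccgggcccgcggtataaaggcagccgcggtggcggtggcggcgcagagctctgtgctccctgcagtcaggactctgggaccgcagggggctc
APCDD1: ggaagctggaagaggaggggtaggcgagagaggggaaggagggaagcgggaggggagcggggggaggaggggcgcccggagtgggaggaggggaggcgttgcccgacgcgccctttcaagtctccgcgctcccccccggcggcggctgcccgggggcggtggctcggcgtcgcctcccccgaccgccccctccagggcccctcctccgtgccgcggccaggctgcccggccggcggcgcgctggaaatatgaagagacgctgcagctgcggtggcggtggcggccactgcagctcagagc
The SP5 window held 3 matches, 148, 109 and 84 bases before the start site, of which the middle one was CTTTGAT on the sense strand and the outer ones were CTTTGAA on the antisense strand. The DKK1 window held 2 matches on the sense strand, CTTTGAA at 95 and CTTTGTT at 76 bases before the start. No match lay in the windows of APCDD1, RNF43 or TNFRSF19, where RNF43 and TNFRSF19 have 2 start sites each. Of 35116 RefSeq promoters of the same length, 13.8% held at least 1 match to these letters, and 2.62% held CTTTGAT. A match describes the letters of the window and not a bound site.

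The level of the 10 genes in each library was first compared as TPM, a measure of transcript abundance that accounts for transcript length. In bulk libraries, fewer cells with a transcript and less of it per cell cannot be told apart. The summed level of the 10 genes was 330 and 337 TPM in control HT29 libraries and 1586 and 1800 TPM in control SW480 libraries. In control HT29 cells the order was led by RNF43 at 135 and 129 TPM, followed by DKK1, AXIN2, ZNRF3, SP5 and LGR5 without overlap between neighbours. NOTUM and NKD1 came next and overlapped, and APCDD1 and TNFRSF19 were lowest. In control SW480 cells the order was led by APCDD1 at 744 and 868 TPM and AXIN2 at 362 and 378 TPM. NKD1 and NOTUM overlapped after them, as did SP5, DKK1 and RNF43 after these, and ZNRF3, TNFRSF19 and LGR5 closed the order. RNF43 alone made up 40.7% and 38.3% of the summed level in control HT29 libraries, and APCDD1 made up 46.9% and 48.2% in control SW480 libraries. LGR5 had the lowest level of the 10 genes in every SW480 library.

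Among the secreted inhibitors, NOTUM encodes a carboxylesterase that removes the palmitoleate group of Wnt proteins. The NOTUM gene lies on chromosome 17 (GRCh37, 79910383 to 79919716, minus strand). It was at 1.42 and 0.82 TPM in control HT29 libraries and at 91.5 and 134 TPM in control SW480 libraries. All SW480 libraries lay far above all HT29 libraries, with a log2 difference of 6.51 ± 0.31 (SE). The summed counts, scaled by library size, gave a ratio of 92.75 for SW480 over HT29 cells with a 95% counting interval of 61.1 to 148. The HT29 value rests on 14 and 8 counts. DKK1 encodes a secreted antagonist that binds LRP5 and LRP6, and lies on chromosome 10 (54074041 to 54077802, plus strand). It was at 84.3 and 95.8 TPM in control HT29 libraries and at 75.3 and 64.1 TPM in control SW480 libraries. The groups did not overlap and DKK1 was lower in SW480 cells, with a log2 difference of -0.50 ± 0.13 (SE; adjusted p = 0.00837, edgeR). The call for DKK1 was kept in 11 of 14 alternatives and was lost without the second HT29 control library (log2 difference -0.43, adjusted p = 0.156, edgeR) and under both limma settings.

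Among the receptor-level regulators, RNF43 and ZNRF3 encode membrane E3 ubiquitin ligases that remove Frizzled receptors from the cell surface. RNF43 lies on chromosome 17 (56431037 to 56494956, minus strand) and was at 135 and 129 TPM in control HT29 libraries and at 61.8 and 72.0 TPM in control SW480 libraries. The SW480 libraries lay below the HT29 libraries, with a log2 difference of -1.10 ± 0.11 (SE; adjusted p = 4.01e-05, edgeR). ZNRF3 lies on chromosome 22 (29279560 to 29453476, plus strand) and was at 42.4 and 40.8 TPM in HT29 and at 35.8 and 35.3 TPM in SW480 controls. Its difference was small, with a log2 value of -0.36 ± 0.10 (SE; adjusted p = 0.0121, edgeR). The ZNRF3 call was kept in 9 of 14 alternatives and was lost without either HT29 control library (log2 differences -0.37 and -0.42), with GC correction (-0.20) and under both limma settings. APCDD1 encodes a membrane glycoprotein that binds Wnt and LRP5 and inhibits signalling, and lies on chromosome 18 (10454632 to 10489946, plus strand). It was at 0.17 and 0.18 TPM in control HT29 libraries, from 2 counts in each. In control SW480 libraries it reached 744 and 868 TPM. The summed counts, scaled by library size, gave a ratio of 4208 for SW480 over HT29 cells with a 95% counting interval of 1640 to 15400.

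In the cytoplasm, AXIN2 is a scaffold of the β-catenin destruction complex and NKD1 is a Dishevelled-binding antagonist. AXIN2 lies on chromosome 17 (63524681 to 63557766, minus strand). It was at 49.9 and 49.6 TPM in control HT29 libraries and at 362 and 378 TPM in control SW480 libraries, a log2 difference of 2.77 ± 0.098 (SE; adjusted p = 9.81e-08, edgeR). NKD1 lies on chromosome 16 (50582307 to 50683160, plus strand). It was at 1.06 and 0.90 TPM in control HT29 libraries, from 42 and 35 counts, and at 126 and 140 TPM in control SW480 libraries. The log2 difference of NKD1 was 6.96 ± 0.16 (SE; adjusted p = 1.87e-08, edgeR). For both genes every SW480 library lay above every HT29 library.

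SP5 encodes a zinc-finger transcription factor that represses Wnt targets, and lies on chromosome 2 (171571847 to 171574588, plus strand). It was at 10.17 and 15.3 TPM in control HT29 libraries and at 64.1 and 85.3 TPM in control SW480 libraries, a log2 difference of 2.43 ± 0.22 (SE; adjusted p = 1.82e-05, edgeR). Of the stem markers, LGR5 encodes an R-spondin receptor of crypt base stem cells and lies on chromosome 12 (71833578 to 71980090, plus strand). It was at 6.27 and 5.04 TPM in control HT29 libraries and at 0.98 and 1.23 TPM in control SW480 libraries. The groups did not overlap and LGR5 was lower in SW480 cells, with a log2 difference of -2.47 ± 0.28 (SE; adjusted p = 7.38e-05, edgeR). TNFRSF19 encodes the TNF receptor family member TROY and lies on chromosome 13 (24144509 to 24250243, plus strand). It was at 0.11 and 0.05 TPM in control HT29 libraries, from 2 and 1 counts, and at 24.3 and 21.8 TPM in control SW480 libraries. The ratio of summed counts was 257 with a 95% counting interval of 87.5 to 1250. The stem markers LGR5 and TNFRSF19 therefore had opposite orders in the cell lines.

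In the control libraries, 6 of the 10 genes were called higher in SW480 cells, where 35.7% of the 14346 genes tested were called, and 4 were called higher in HT29 cells, where 31.8% were called. APCDD1, TNFRSF19 and NOTUM reached 10 counts in 2 of these libraries only through SW480 cells, where they are high, so that they had to differ, and nothing is read from the number called. In the PRDX2 siRNA libraries this held for APCDD1 and TNFRSF19. The PRDX2 siRNA libraries gave a second set of libraries for the same line comparison. There 6 genes were again called higher in SW480 cells (background 42.9%) and 3 were called higher in HT29 cells (background 38.9%), and these were among the genes called in the controls. The log2 differences in these libraries were 11.58 for APCDD1, 7.19 for TNFRSF19, 5.93 for NOTUM, 4.71 for NKD1, 3.43 for AXIN2 and 2.81 for SP5. The fitted values of APCDD1 and TNFRSF19 depend on the prior count, and their ratios of summed counts were 3212 (95% counting interval 1380 to 9890) and 151.5 (69.3 to 414). LGR5 was lower in SW480 cells by a log2 difference of -2.83 ± 0.24 (SE; adjusted p = 3.16e-08, edgeR) and RNF43 by -1.32 ± 0.041 (SE; adjusted p = 1.3e-13, edgeR). ZNRF3 gave -0.22 ± 0.045 (SE; adjusted p = 0.00032, edgeR), although its TPM values overlapped, and lost its call without the first SW480 library with PRDX2 siRNA (-0.11) and under both limma settings. DKK1 gave -0.11 with a 95% interval of -0.25 to 0.03 and did not pass the test.

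**Figure D1:**
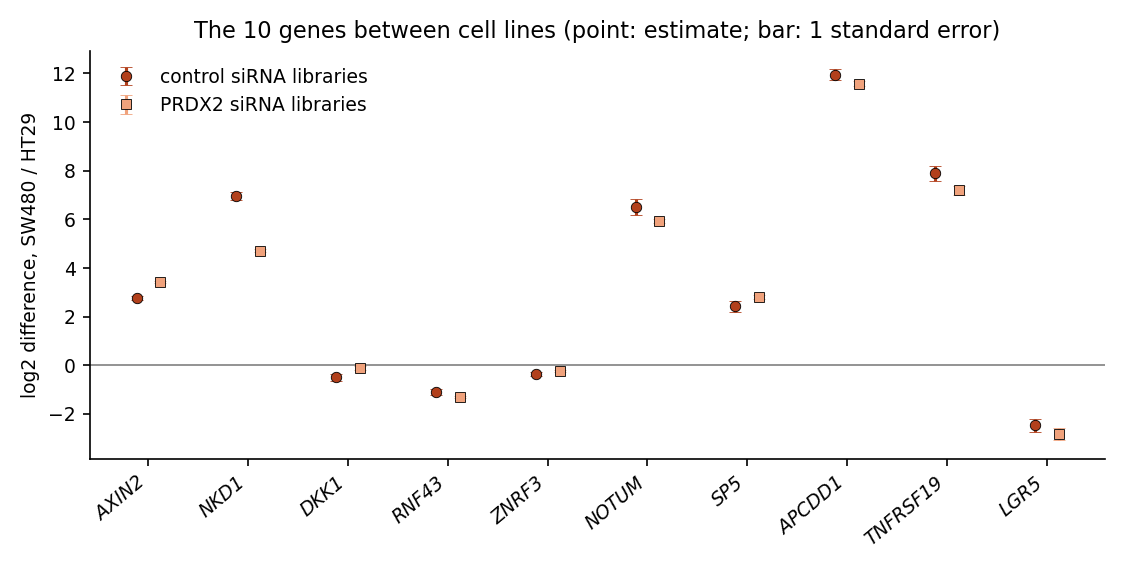
Log2 difference of SW480 over HT29 cells for each gene from edgeR, in control siRNA libraries (circles) and PRDX2 siRNA libraries (squares), with bars of 1 standard error. The 6 genes higher in SW480 cells range from 2.43 for SP5 to 11.95 for APCDD1 in the controls, and LGR5 lies at -2.47.

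PrxII knockdown in HT29 cells was then described for the same genes in CPM scaled by edgeR's TMM factors. Of the 8 genes with enough counts to be tested, 1 was called higher, where 7.76% of the 12961 genes tested were called higher. Also, 2 were called lower, where 9.82% were called lower. The values that chose the genes include this contrast, and nothing is read from these counts. AXIN2 was at 97.8 and 97.1 CPM in the controls and at 63.9 and 64.9 CPM after knockdown. The log2 fold change of AXIN2 was -0.60 ± 0.052 (SE). DKK1 was at 69.2 and 78.7 CPM in the controls and at 46.3 and 48.0 CPM after knockdown, with a log2 fold change of -0.65 ± 0.068 (SE). NKD1 moved in the other direction, from 4.31 and 3.65 CPM in the controls to 14.5 and 16.6 CPM after knockdown. Its log2 fold change was 1.96 ± 0.17 (SE), a 3.90-fold higher level. Per length, NKD1 after knockdown in HT29 cells was at 3.75 and 4.27 TPM, against 113 to 140 TPM in the SW480 libraries.

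The other 5 tested genes did not pass the test in HT29 cells. NOTUM was at 1.44 and 0.83 CPM in the controls and at 2.146 and 2.103 CPM after knockdown, a log2 fold change of 0.89 with a 95% interval of 0.11 to 1.68. LGR5 was at 8.31 and 6.68 CPM in the controls and at 10.6 and 8.52 CPM after knockdown, a log2 fold change of 0.36 with an interval of -0.01 to 0.72. Of these 5 genes, NOTUM, LGR5 and ZNRF3 did not overlap between groups in CPM. The share of all genes without overlap was not counted, and nothing is read from this. NOTUM and LGR5 rest on few counts, with 8 to 22 for NOTUM and 64 to 109 for LGR5. SP5 was at 9.03 and 13.6 CPM in the controls and at 10.9 and 11.4 CPM after knockdown, so the knockdown libraries lay between the controls. The E3 ligase genes stayed close to their control levels. RNF43 was at 284 and 273 CPM in the controls and at 274 and 270 CPM after knockdown (interval of the log2 fold change -0.11 to 0.04). ZNRF3 was at 131 and 127 CPM in the controls and at 126 and 122 CPM after knockdown (interval -0.15 to 0.05). APCDD1 had 2 and 2 counts in the controls and 1 and 4 after knockdown, and TNFRSF19 had 2 and 1 against 3 and 3, so that a difference was not detectable at this depth. The summed level of the 10 genes was 300 and 296 TPM after knockdown.

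In SW480 cells 0 of the 10 genes passed the edgeR test, where 1.22% of the 14112 genes tested were called higher and 2.08% lower. The number called over all genes rested on single libraries, being 466 with all 4 libraries, 3437 or 7364 without the first or the second control library, and 105 or 87 without the first or the second PRDX2 siRNA library. An unadjusted p under 0.05 was reached by 2 of the 10 (20%), NKD1 and SP5, against 24.4% of all genes tested, and DESeq2 and both limma settings also called 0. NKD1 was at 500.0 and 562 CPM in the controls and at 441 and 424 CPM after knockdown, a log2 fold change of -0.30 ± 0.099 (SE). SP5 was at 55.5 and 74.5 CPM in the controls and at 81.4 and 85.0 CPM after knockdown, a log2 fold change of 0.35 ± 0.15 (SE). Of the 10 genes, only APCDD1 and LGR5 overlapped between groups in CPM. The share of all genes without overlap was not counted, and nothing is read from this. The SP5 controls were further apart from each other than the higher control was from the knockdown libraries. The same was seen for NOTUM, at 90.5 and 134 CPM in the controls and 136 and 141 CPM after knockdown (log2 fold change 0.30 ± 0.17, SE). AXIN2 was at 693 and 729 CPM in the controls and at 736 and 745 CPM after knockdown, a log2 fold change of 0.06 with a 95% interval of -0.13 to 0.25. DKK1 was at 60.2 and 51.8 CPM in the controls and at 47.2 and 45.8 CPM after knockdown (log2 fold change -0.27, interval -0.56 to 0.02).

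RNF43 in SW480 cells was at 128 and 150 CPM in the controls and at 113 and 119 CPM after knockdown (log2 fold change -0.25, interval -0.52 to 0.01). ZNRF3 was at 107 and 107 CPM in the controls and at 110 and 116 CPM after knockdown (0.08, interval -0.15 to 0.32). The highest gene, APCDD1, was at 854 and 1005 CPM in the controls and at 876 and 857 CPM after knockdown, with overlap between the groups. TNFRSF19 was at 45.4 and 40.04 CPM in the controls and at 49.8 and 48.3 CPM after knockdown (0.20, interval -0.09 to 0.48). LGR5 was at 1.27 and 1.60 CPM in the controls and at 1.65 and 1.21 CPM after knockdown, from 11 to 16 counts per library, and its interval was wide (-0.89 to 0.86).

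The SW480 values moved with the control library used and with GC content. The transcripts of SP5 (70.7% GC) and NOTUM (67.0% GC) were the richest in GC among the 10 genes, and those of LGR5 (42.6%) and DKK1 (44.9%) were the poorest. Without the first control library 4 of the 10 genes were called, in a fit that called 24.6% of all genes tested. These were NKD1 (-0.38), RNF43 (-0.37) and APCDD1 (-0.22), which were lower, and TNFRSF19 (0.29), which was higher. Without the second control library 6 of the 10 were called, in a fit that called 52.8% of all genes, with NOTUM (0.61), SP5 (0.58) and AXIN2 (0.09) higher and DKK1 (-0.38), NKD1 (-0.21) and RNF43 (-0.14) lower. NKD1 and RNF43 were called lower in both of these fits. With the GC correction 4 were called, where 17.0% of all genes were, of which NKD1 (-0.52), RNF43 (-0.34) and APCDD1 (-0.26) were lower and TNFRSF19 (0.28) was higher. The correction moved NOTUM to -0.04 and SP5 to -0.07, so that the direction of both genes turned, as did that of AXIN2 (-0.08), ZNRF3 (-0.11) and LGR5 (0.15).

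**Figure D2:**
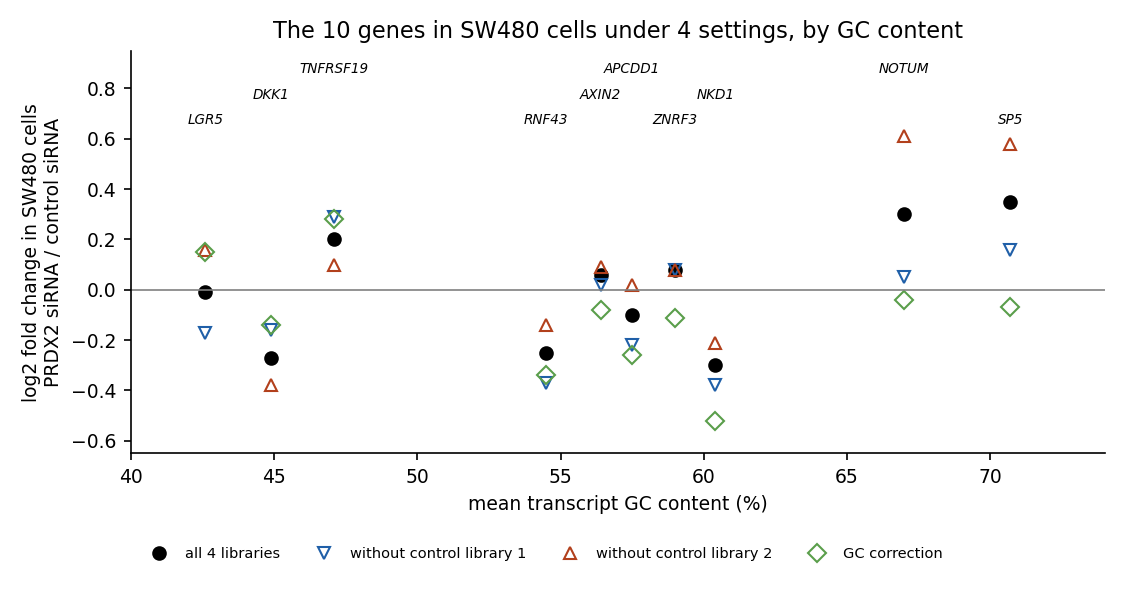
Log2 fold change of PRDX2 siRNA over control siRNA in SW480 cells against the mean transcript GC content of each gene (percent), with all 4 libraries, without each control library, and with GC correction. NOTUM and SP5 at the high GC end spread from -0.04 to 0.61 and from -0.07 to 0.58, whereas NKD1 stays below 0 in all 4 settings.

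The difference of the knockdown effect between the cell lines was fitted over all 8 libraries and called 2 of the 10 genes, where 1.12% of the 14772 genes tested were called. Over all genes the number called was 166, and 6 to 5237 when 1 library was left out, with the highest number without the second SW480 control library and the lowest without the first HT29 library with PRDX2 siRNA. With the GC correction it was 957 (6.80%). The 2 genes called were NKD1 and AXIN2, which earlier results had already singled out, so their values are descriptive. The effect on NKD1 in HT29 minus that in SW480 cells was 2.26 on the log2 scale (95% interval 1.88 to 2.64), and that on AXIN2 was -0.66 (interval -0.85 to -0.46). DKK1 gave -0.38 with an interval of -0.70 to -0.06 and did not pass the adjusted threshold. NKD1 kept its direction in all 17 alternatives that were run, with values of 1.54 to 2.50. These alternatives reuse the libraries whose earlier results had singled it out. AXIN2 kept its direction in all 17 and its call in 9, and the call was lost when any HT29 library or any PRDX2 siRNA library of SW480 cells was left out and under both limma settings. Set side by side, the log2 difference between the cell lines was 6.96 for NKD1 in the control libraries and 4.71 in the PRDX2 siRNA libraries, and for AXIN2 it was 2.77 and 3.43.

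The closest relatives of these genes were listed for comparison. AXIN1, the paralog of AXIN2, was at 101.6 and 101.4 CPM in control HT29 libraries and at 114 and 123 CPM after knockdown, and rose by a log2 fold change of 0.22 ± 0.051 (SE; adjusted p = 0.00608, edgeR). In SW480 cells AXIN1 was at 30.9 and 39.1 CPM in the controls and at 55.7 and 58.2 CPM after knockdown. It rose by 0.70 ± 0.14 (SE; adjusted p = 0.038, edgeR), or by 0.40 with GC correction, where it was also called. Without the first and the second control library it rose by 0.54 and 0.88. In SW480 cells AXIN1 was not called under either limma setting. The AXIN1 effects of the cell lines were not called different (difference -0.48 ± 0.15, SE; adjusted p = 0.131, edgeR). In HT29 cells AXIN1 did not pass DESeq2 (adjusted p = 0.0638), the fit of all 8 libraries (0.357) or limma on log2(TPM + 1) (0.0984). LGR4, a relative of LGR5, was at 184 and 185 CPM in control HT29 libraries and at 160 and 161 CPM after knockdown, and fell by 0.20 on the log2 scale (adjusted p = 0.00214, edgeR). In SW480 cells LGR4 was at 25.1 and 24.9 CPM in the controls and at 17.7 and 19.8 CPM after knockdown (-0.41 ± 0.15, SE; adjusted p = 0.143, edgeR). It was called lower without the first (-0.41) or the second (-0.43) control library, and not with GC correction (-0.28). NKD2, the paralog of NKD1, was at 7.18 and 8.35 CPM in control HT29 libraries and at 8.88 and 8.20 CPM after knockdown, and its log2 fold change of 0.14 did not pass the test. In SW480 cells NKD2 gave 0.24, LGR6 gave -0.37, DKK3 gave 0.08 and DKK4 gave -0.02, none of which passed. Without the first control library, without the second and with GC correction, NKD2 gave 0.00, 0.51 (called) and -0.11, and LGR6 gave -0.50 (called), -0.23 and -0.55 (called). In the same order DKK3 gave -0.04, 0.20 (called) and -0.04, and DKK4 gave -0.14, 0.11 and -0.04. LGR6, DKK3 and DKK4 were too low to test in HT29 cells, and DKK2 and SP8 were too low in both lines.

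Among 74 other Wnt pathway genes, 36 were tested in HT29 cells, of which 5 rose and 2 fell, or 19.4% against 17.6% of all genes tested, so that the share was near the background. Their median log2 fold change was 0.03, against 0.00 over all genes. In the destruction complex 3 of 10 genes rose, where 7.76% of all genes tested were called higher. These were AXIN1, APC (0.17) and GSK3A (0.15), and no receptor or Dishevelled gene passed. WLS, a Wnt secretion factor, rose (0.18) and the corepressor gene TLE1 fell (-0.21). The ligand WNT11 was at 15.8 and 19.2 CPM in the controls and at 6.73 and 9.25 CPM after knockdown, and fell by 1.14 on the log2 scale (adjusted p = 6.51e-05, edgeR). TLE4, a relative of TLE1, was at 12.1 and 11.3 CPM in the controls and at 14.8 and 16.7 CPM after knockdown (0.43 ± 0.13, SE; adjusted p = 0.0273, edgeR). DESeq2 called 1 of the 36 genes lower and 0 higher, and the fit of all 8 libraries called 1 of 57 lower and 0 higher. With the GC correction 10 of the 36 passed (27.8%, against 22.0% of all genes). In SW480 cells 57 were tested, of which 4 rose and 0 fell, or 7.02% against 3.30% of all genes tested. An unadjusted p under 0.05 was reached by 18 of the 57 (31.6%), against 24.4% of all genes. Their median was 0.21 against 0.00 over all genes, and was 0.13 and 0.305 without the first and the second control library and 0.10 with GC correction. Beside AXIN1, those that rose were the ligands WNT5A (0.52) and WNT9A and the inhibitor SFRP5. WNT9A was at 0.92 and 1.60 CPM in the controls and at 4.93 and 5.36 CPM after knockdown, and rose by 2.0 ± 0.32 (SE; adjusted p = 0.0173, edgeR). SFRP5 was at 18.2 and 23.8 CPM in the controls and at 43.7 and 43.3 CPM after knockdown, and rose by 1.05 ± 0.16 (SE; adjusted p = 0.0135, edgeR). All 4 were also called higher with GC correction. Without the first control library, without the second and with GC correction, WNT5A gave 0.62, 0.43 and 0.62. In the same order WNT9A gave 1.67, 2.45 and 1.80, and SFRP5 gave 0.87, 1.25 and 0.78. DESeq2 called 3 of the 57 genes higher, and neither limma setting called any of them. Without the first or the second SW480 control library 36.8% and 57.9% of these genes passed (21 and 33), against 24.6% and 52.8% of all genes, and 2 passed when 1 or the other PRDX2 siRNA library was left out.

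A list of 17 other β-catenin targets, part of which the study itself chose on these HT29 and SW480 libraries, is no independent evidence of direction. Among them, the study reported CCND1 and ID2 as lower after knockdown in both lines, and MMP7 as lower in HT29 cells. In HT29 cells 15 were tested, of which 3 rose and 4 fell, where 7.76% of all genes tested rose and 9.82% fell. The genes that rose were JUN (0.52), PROX1 (0.51) and FOSL1 (0.41), and CCND1 (-0.52), ID2 (-0.43), MMP7 (-0.32) and CD44 (-0.25) fell. In SW480 cells 14 were tested, where 1.22% of all genes tested were called higher and 2.08% lower. Of the 14, JUN (0.61) rose and ID2 (-0.64) and CCND1 (-0.59) fell. These 3 were also called in the same direction without the first or the second control library and with the GC correction. JUN and FOSL1 encode AP-1 subunits, PROX1 encodes a homeobox factor, CCND1 encodes cyclin D1 and ID2 encodes an inhibitor of basic helix-loop-helix factors.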

How the data were processed

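Libraries were grouped by the sample labels. The labels speak of duplicates, without saying whether these were separate transfections, so p-values measure only the spread between these libraries, which may be technical. As stated for HT29 cells, the authors aligned the reads to hg19 with MapSplice 2.1.7 after FastQC and, with RSEM 1.2.12, deposited for each refGene symbol an expected count, of which 96.8% were whole within 0.005, with TPM and FPKM values and transcript lengths. The deposited TPM values give levels per length, and the deposited FPKM values were used only to check them.

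Expected counts were rounded and tested with edgeR 4.0.16 (R 4.3.3; glmQLFit and glmQLFTest, TMM, Benjamini-Hochberg adjustment over all genes tested, threshold 0.05) where a gene reached 10 counts in 2 or more libraries. Each comparison was fitted on its own 4 libraries, and the difference between cell lines on all 8. Alternatives were DESeq2 1.42.0, RLE scaling, a fit without the filter on low counts, a robust prior, a replicate block, a single fit to all 8 libraries, leaving out each library, and a GC correction (loess, span 0.5), alone and with the block. In limma 3.58.1 the log2 scale had a pseudocount of 1 or 0.1 added to the TPM. GC content was matched for 89.5% of genes. Scripts were tested on simulated data. Counting intervals are exact and cover counting error only.

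The 10 genes and all lists were chosen with earlier results of these data known. All 10 genes and their paralogs were named, with at most 4 other genes per direction and cell line by absolute log2 fold change. CD44, APC, GSK3A, WLS, TLE1 and WNT5A were named after their values were seen, to complete a count. Promoter windows came from RefSeq, and AXIN2, NKD1, ZNRF3, NOTUM and LGR5 were not matched.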

Additional observations from a re-analysis of the deposited data

Results flagged for a closer look

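The fit of all 8 libraries called the knockdown effect of 2 of the 10 genes different between the cell lines. For AXIN2 the effect in HT29 minus that in SW480 cells was -0.66 on the log2 scale, from -0.60 in HT29 and 0.06 in SW480 cells. For NKD1 it was 2.26, from 1.96 in HT29 and -0.30 in SW480 cells. Earlier results of these libraries had already shown both differences, so they are no independent support. Groups of 2 libraries were too small to be searched for single outlying libraries.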

How the results depend on the processing

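Of the 10 genes, the number called in HT29 cells was 3 in the main fit and in each fit without a library, 2 with DESeq2 (which gave no adjusted p for NKD1), and 1 and 0 with limma on log2(TPM + 1) and log2(TPM + 0.1). In SW480 cells it was 0 in the main fit, 1 with all 8 libraries together, 4 with the GC correction, 4 with the GC correction and the replicate block, and 0 to 6 without a library. For the difference between cell lines it was 2 in the main fit, 1 with each limma setting, 4 with the GC correction, 4 with the GC correction and the replicate block, and 1 to 4 without a library. Of the other Wnt pathway genes, 7 were called in HT29 cells, against 1 with DESeq2, 1 with all 8 libraries together, 0 and 0 with limma, 10 with the GC correction, and 2 to 7 without a library. In SW480 cells 4 were called, against 15 with all 8 libraries together, 0 and 0 with limma, and 2 to 33 without a library. The cause of these changes was not tested.

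Replicate numbers were shared between the siRNA groups, but the deviations of same-numbered libraries correlated at only 0.10 in HT29 and 0.11 in SW480 cells over 2 pairs, and no label ties the numbers to a shared transfection. With the replicate block the other Wnt pathway genes called in SW480 cells numbered 10, or 9 with the GC correction and the block. In HT29 cells they numbered 10 with the block, with or without the GC correction. Of the 10 genes, the block alone called 3 in HT29 and 0 in SW480 cells. The GC correction and the block together called 3 in HT29 and 4 in SW480 cells.

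The line difference of DKK1 in PRDX2 siRNA libraries turned to 0.03 with limma on log2(TPM + 1) and to 0.03 with limma on log2(TPM + 0.1), where the median of all genes was 0.18 and 0.20 against 0.05 in the main fit. Over all genes, limma on log2(TPM + 1) called 18 genes higher and 8 lower in HT29 cells, against 1006 and 1273 in the main fit. APCDD1 and TNFRSF19 in HT29 cells had 1 to 4 counts, which limits their ratios, and both fell under the filter on low counts in the line comparisons without an SW480 library. Fits without a library leave 1 library in a group, which is assumed to vary like the other group.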
